A study of Mus musculus with 6 samples.

Results

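The BCL2 family genes that are not counted among the classical targets of the transcription factor p53 were followed here. They were compared between 2 groups of cultures labelled as mouse cardiomyocytes. The 10 genes were taken by name: Bcl2, Bcl2l1, Bcl2l2, Mcl1, Bak1, Bok, Bid, Bad, Bmf and Bcl2l11. Each matched 1 identifier among the 18951 genes of the count table through GENCODE release M21, and all 10 passed the filter on low counts. Per the labels and protocols, the cells came from hearts of 1-day-old mice of strain C57BL/6. They were used at a cardiac troponin T purity above 97.5% and were harvested 48 h after transfection, again per the protocols. In 3 cultures the transfected siRNA was directed against Rbm22 (si-Rbm22), which encodes an RNA-binding component of the spliceosome, and in the other 3 it was a scrambled sequence (si-Control). No other allele or agent is named for either group. The comparison asked how silencing of Rbm22 changes the transcriptome of these cells.

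BCL2 family proteins decide whether the outer membrane of the mitochondrion is opened, the step that commits a cell to death by the intrinsic apoptosis pathway. Guardians such as BCL2, BCL-xL (from Bcl2l1), BCL-w (from Bcl2l2) and MCL1 hold the effectors BAK and BAX in check, while BH3-only proteins such as BID, BAD, BMF and BIM (from Bcl2l11) bind the guardians or activate the effectors when a cell is stressed. MCL1 and BCL-xL are known to be needed for the survival of heart muscle cells. Several of these transcripts are also spliced into isoforms of opposite function, which counts per gene add together.

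The 6 libraries held 34269042 to 37344860 reads on genes. Rbm22 had 22, 25.2 and 22.3 CPM in the si-Control-labelled libraries and 14.6, 12.9 and 13.1 CPM in the si-Rbm22 libraries, where CPM is reads scaled to a common library size (counts per 1e6) after scaling by the trimmed mean of M-values (TMM). The groups did not overlap (log2 fold change −0.78, SE 0.097, edgeR adjusted p = 4.22e-06). This was an absolute log2 change at the 48.4 percentile of all genes tested, of which 84.2% did not overlap between the groups. Markers of the labelled cell type did not follow the label in both groups. The summed level of 12 cardiomyocyte markers was 47.2 to 54.5 CPM in the si-Control-labelled libraries and 26303 to 40654 CPM in si-Rbm22, and Mybpc3, Myl2, Myl3, Myl7, Pln and Nppa had 0 reads in all 3 si-Control-labelled libraries. Most of the sum in the latter came from Tnnt2, the gene of cardiac troponin T, at 39.0, 43.2 and 44.4 CPM. Its mean was 42.2 CPM against 4529 CPM in si-Rbm22. Myh6 had 3, 1 and 0 reads in the si-Control-labelled libraries. Skeletal muscle precursor markers summed to 1206 to 1279 CPM against 365.2 to 525.4 CPM, with Myf5, Myod1, Cacng1 and Cdh15 at 0 reads in si-Rbm22. The list's 8 tested markers were all lower in si-Rbm22, with a median log2 fold change of −11.2, a steeper fall than the sum shows. Fibroblast markers summed to 22226 to 24129 against 6104 to 6459 CPM, with 7 of 10 lower in si-Rbm22, 2 higher and 1 that did not pass. Endothelial markers lay at 8.87 to 10.5 against 436.0 to 482.5 CPM, with Tie1 and Emcn at 0 reads in the si-Control-labelled libraries. Macrophage and leukocyte markers lay at 5.71 to 7.55 against 123.8 to 160.4 CPM, with Adgre1, Tyrobp and C1qb at 0 reads in the former. Epicardial and mesothelial markers lay at 99.1 to 103.0 against 2205 to 2405 CPM, with Upk3b and Upk1b at 0 reads in the former. The sum of the smooth muscle and pericyte markers overlapped, at 2650 to 2749 against 2185 to 2677 CPM, but no single marker did: 5 of these 8 were higher in si-Rbm22 and 3 lower. Every difference below is between libraries that differ in these markers, and the marker differences run along the group labels. An effect of the siRNA and a difference in cell content therefore cannot be told apart in these libraries. The part of cell content in the results for the BCL2 family was not tested. Words such as rose and fell describe si-Rbm22 relative to the si-Control-labelled libraries only. In bulk RNA, fewer cells of a type and less RNA per cell cannot be told apart.

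**Figure D1:**
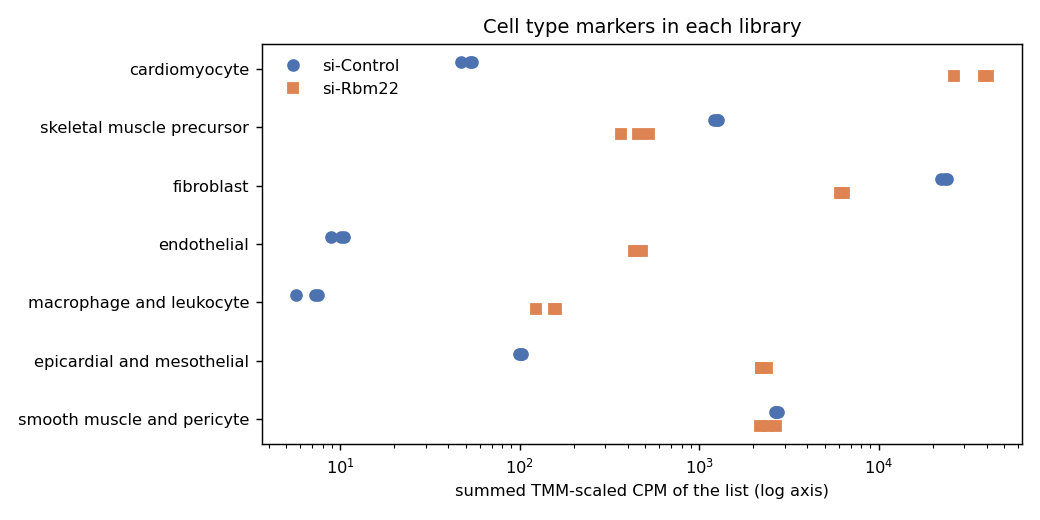
Summed TMM-scaled CPM of each cell type marker list (horizontal log axis) in the 3 si-Control-labelled libraries (circles) and the 3 si-Rbm22 libraries (squares). The cardiomyocyte list lies at 47.2 to 54.5 CPM in the si-Control-labelled libraries and at 26303 to 40654 CPM in si-Rbm22, and the sum of the smooth muscle and pericyte list overlaps between the groups, although none of its 8 markers does alone.

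Of the 4 guardians, Bcl2l1, Mcl1 and Bcl2 were higher in si-Rbm22 and Bcl2l2 was slightly lower. Both effectors, Bak1 and Bok, were lower, as were the BH3-only genes Bid, Bad and Bmf, while Bcl2l11 did not pass the test. In all, 9 of the 10 genes passed (edgeR quasi-likelihood test, Benjamini-Hochberg adjusted p under 0.05 over 14621 genes), 3 of them higher and 6 lower. Of all genes tested, 82.0% passed, 43.1% higher and 38.9% lower, so the share of the 10 genes that passed was close to the share of the transcriptome. A change of at least 2-fold with an adjusted p under 0.05 was seen in 4 of the 10 genes, 1 higher and 3 lower, against 43.1% of all genes tested. The median log2 fold change of the 10 genes was −0.28, and that of all genes tested was 0.05. The values of the groups did not overlap for 10 of 10 genes, which held for 84.2% of all genes tested.

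**Figure D2:**
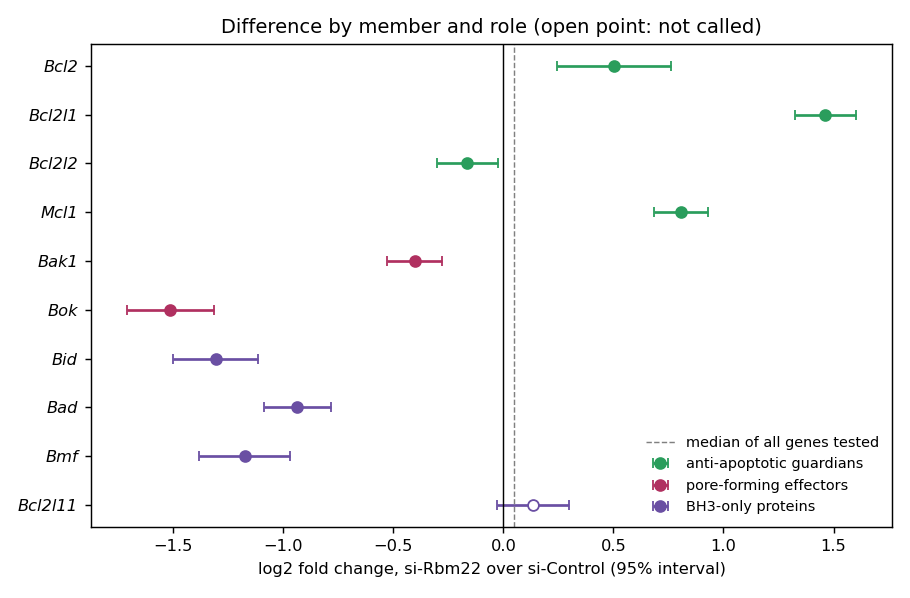
Log2 fold change of si-Rbm22 over si-Control for each gene with its 95% interval (horizontal axis), coloured by role, with the open point for the gene that did not pass the test. Bcl2l1 lies farthest to the right at 1.46 and Bok farthest to the left at −1.51, and the dashed line marks the median of all genes tested at 0.05.

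Among the guardians, the largest difference was in Bcl2l1, the gene of BCL-xL, which binds BAK, BAX and the BH3-only proteins at the mitochondrion (ENSMUSG00000007659; GRCm38 chromosome 2, 152780668 to 152831728, minus strand). It had 37.4, 35.8 and 35.2 CPM in the si-Control-labelled libraries and 93.9, 98.7 and 106.1 CPM in si-Rbm22, from 1223 to 1354 and 3439 to 3983 reads. Every si-Rbm22 library was thus above every si-Control-labelled library. The fold change was 2.76 (log2 fold change 1.46, SE 0.065, edgeR adjusted p = 5.78e-11), an absolute log2 change at the 67.1 percentile of all genes tested. The sequence upstream of its start is shown because it belongs to the member that rose the most. It covers bases 250 to 31 before the RefSeq start at chr2:152831759-152831978 (GRCm38.p6, minus strand, printed 5′ to 3′), holds no annotated exon, and contains none of the motifs searched for.

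Bcl2l1: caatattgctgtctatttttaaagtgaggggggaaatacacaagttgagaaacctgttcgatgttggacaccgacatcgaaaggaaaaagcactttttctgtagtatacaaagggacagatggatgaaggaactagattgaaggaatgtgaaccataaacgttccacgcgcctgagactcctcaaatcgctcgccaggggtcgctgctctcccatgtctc

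Mcl1 encodes a short-lived guardian that holds BAK and BIM in check and is lost quickly when synthesis stops (ENSMUSG00000038612; chromosome 3, 95658788 to 95663176, plus strand). It was the family member with the most reads, 5204 to 5494 in the si-Control-labelled libraries and 9412 to 10010 in si-Rbm22. Its levels were 151.6, 148.4 and 149.9 CPM against 257.8, 278.1 and 250.7 CPM. The lowest si-Rbm22 library was well above the highest si-Control-labelled library, and the fold change was 1.75 (log2 fold change 0.81, SE 0.057, edgeR adjusted p = 9.63e-09). Its interval of the log2 fold change, 0.68 to 0.93, did not reach that of Bcl2l1, 1.32 to 1.60.

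Bcl2, the founding guardian of the family (ENSMUSG00000057329; chromosome 1, 106538178 to 106714274, minus strand), was the member with the fewest reads, 277 to 304 in the si-Control-labelled libraries and 401 to 434 in si-Rbm22. It lay at 8.39, 7.77 and 7.98 CPM against 11.5, 12.1 and 10.7 CPM. The groups were apart, with a fold change of 1.42 (log2 fold change 0.50, SE 0.120, edgeR adjusted p = 0.00143). Its interval, 0.25 to 0.76, was the widest of the 10 genes.

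Bcl2l2, the gene of BCL-w (ENSMUSG00000089682; chromosome 14, 54883377 to 54888234, plus strand), was the only guardian that fell. It lay at 52.0, 55.5 and 52.1 CPM in the si-Control-labelled libraries and at 46.3, 49.7 and 46.6 CPM in si-Rbm22. The groups were separate but close: the highest si-Rbm22 library was 49.7 CPM and the lowest si-Control-labelled library 52.0 CPM. The log2 fold change was −0.16 (SE 0.064, interval −0.30 to −0.03, edgeR adjusted p = 0.0296). This call did not hold without si-Control replicate 2 (adjusted p = 0.093), without si-Rbm22 replicate 1 (0.063), by DESeq2 (0.056) or among genes with at least 10 CPM in 3 libraries (0.0837).

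**Figure D3:**
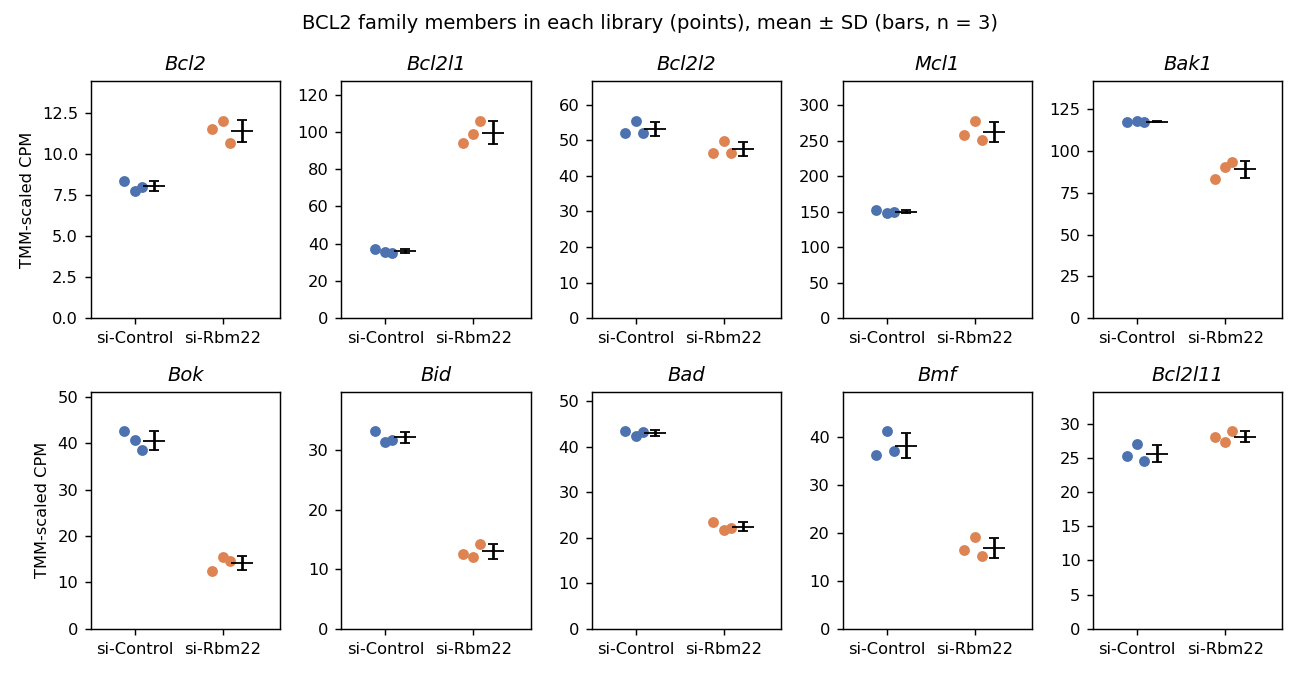
TMM-scaled CPM of each of the 10 genes in the 3 si-Control-labelled libraries (blue) and the 3 si-Rbm22 libraries (orange), with the mean and SD beside the points (n = 3) and a vertical axis from 0 in every panel. Bcl2l1, Mcl1 and Bcl2 lie higher in si-Rbm22, Bok, Bid, Bad, Bmf and Bak1 lie lower, and the points of Bcl2l2 and Bcl2l11 lie close together.

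Both pore-forming effectors were lower in si-Rbm22. Bok, an effector that can open the membrane without BH3-only proteins and that is also found at the endoplasmic reticulum (ENSMUSG00000026278; chromosome 1, 93685660 to 93695764, plus strand), showed the largest fall of the 10 genes. It had 42.6, 40.6 and 38.5 CPM in the si-Control-labelled libraries and 12.5, 15.5 and 14.7 CPM in si-Rbm22. No si-Rbm22 library came near the lowest si-Control-labelled library, and the level was 2.85-fold lower (log2 fold change −1.51, SE 0.092, edgeR adjusted p = 1.74e-09). Upstream sequence of Bok is shown as that of the member that fell the most, over bases 250 to 31 before the RefSeq start at chr1:93685325-93685544 (GRCm38.p6, plus strand). It also holds no annotated exon and none of the motifs searched for.

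Bok: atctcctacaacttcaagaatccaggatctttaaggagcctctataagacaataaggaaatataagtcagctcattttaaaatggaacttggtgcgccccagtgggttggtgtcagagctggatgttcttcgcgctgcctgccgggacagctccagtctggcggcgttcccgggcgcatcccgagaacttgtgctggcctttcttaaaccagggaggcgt

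Bak1 encodes BAK, the effector that resides in the outer mitochondrial membrane and is bound there by MCL1 and BCL-xL (ENSMUSG00000057789; chromosome 17, 27019810 to 27029009, minus strand). It lay at 117.4, 118.3 and 117.4 CPM in the si-Control-labelled libraries, a spread of 0.443% of the mean (coefficient of variation), and at 83.4, 90.3 and 93.4 CPM in si-Rbm22. The groups did not overlap, and the level was 1.32-fold lower (log2 fold change −0.40, SE 0.058, edgeR adjusted p = 1.84e-05). Between the effectors, the intervals of the log2 fold change were apart, −1.71 to −1.31 for Bok and −0.53 to −0.28 for Bak1. Within each library the ratio of Bak1 to Bok per exonic kilobase was 2.11 to 2.33 in the si-Control-labelled libraries and 4.46 to 5.10 in si-Rbm22.

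Of the BH3-only genes, 3 of 4 fell. Bid encodes the protein that caspase-8 cleaves to carry a death receptor signal to the mitochondrion (ENSMUSG00000004446; chromosome 6, 120891930 to 120916853, minus strand). It fell from 33.2, 31.5 and 31.8 CPM to 12.6, 12.1 and 14.4 CPM, with all 3 si-Rbm22 libraries below the lowest si-Control-labelled library (2.47-fold lower; log2 fold change −1.31, SE 0.090, edgeR adjusted p = 6.82e-09). Bmf, the gene of a BH3-only protein that is tethered to the actin and myosin V cytoskeleton until released (ENSMUSG00000040093; chromosome 2, 118528757 to 118549687, minus strand), lay at 36.4, 41.2 and 37.1 CPM against 16.4, 19.3 and 15.1 CPM. It was 2.26-fold lower (log2 fold change −1.18, SE 0.097, edgeR adjusted p = 4.93e-08), and replicate 2 was the highest library within both groups. Bad encodes a sensitizer that growth factor signalling holds inactive by phosphorylation (ENSMUSG00000024959; chromosome 19, 6941861 to 6951899, plus strand). It lay at 43.4, 42.3 and 43.4 CPM against 23.6, 21.8 and 22.1 CPM, a 1.91-fold lower level with no overlap (log2 fold change −0.94, SE 0.071, edgeR adjusted p = 1.98e-08).

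Bcl2l11, the gene of BIM, a BH3-only protein that can engage every guardian (ENSMUSG00000027381; chromosome 2, 128126038 to 128162547, plus strand), did not pass the test. It lay at 25.3, 27.0 and 24.5 CPM in the si-Control-labelled libraries and 28.0, 27.4 and 28.9 CPM in si-Rbm22. The lowest si-Rbm22 library was above the highest si-Control-labelled library by less than the spread within the latter. The log2 fold change was 0.13 with an interval of −0.03 to 0.30 (SE 0.076, edgeR adjusted p = 0.119), so a change of more than 1.23-fold upward lay outside the interval. Among genes with at least 10 CPM in 3 libraries the adjusted p was 0.046. Relative to Bcl2l11 within each library, and per exonic kilobase, Bid went from a ratio of 2.64 to 2.97 in the si-Control-labelled libraries to 0.997 to 1.12 in si-Rbm22, Bmf from 2.19 to 2.34 to 0.801 to 1.08, and Bad from 4.93 to 5.56 to 2.40 to 2.64.

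The upstream sequences of Bmf and Bcl2l11 are shown together because these BH3-only genes lie on the same chromosome, differed in their fold change between the groups and were the members that held the rarer motifs. Each covers bases 250 to 31 before the RefSeq start, for Bmf at chr2:118549717-118549936 on the minus strand and for Bcl2l11 at chr2:128125788-128126007 on the plus strand (GRCm38.p6). Capitals mark the matches, in either orientation.

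Bmf: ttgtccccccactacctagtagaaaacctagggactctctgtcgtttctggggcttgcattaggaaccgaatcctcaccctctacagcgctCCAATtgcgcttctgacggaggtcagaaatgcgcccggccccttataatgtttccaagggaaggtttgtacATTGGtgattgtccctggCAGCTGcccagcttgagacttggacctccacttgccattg

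Bcl2l11: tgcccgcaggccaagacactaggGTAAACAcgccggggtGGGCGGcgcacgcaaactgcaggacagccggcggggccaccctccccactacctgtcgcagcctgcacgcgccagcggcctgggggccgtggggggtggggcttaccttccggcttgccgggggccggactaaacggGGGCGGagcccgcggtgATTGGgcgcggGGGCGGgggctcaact

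Each gene's window of 220 bases, at its RefSeq start farthest upstream, was searched on both strands. The window of Bak1 lay wholly within annotated exons (220 bases) and that of Bcl2l2 held 18 exonic bases, while the other 8 held none. The GC box was searched as GGGCGG and the CCAAT box by those letters. An E-box of the type bound by myogenic factors was searched as CAGCTG and the forkhead motif of FOXO proteins as GTAAACA, and the p53 half-site was searched by its consensus. CAGCTG was found in 1 of the 10 windows, that of Bmf, at 70 bases before the start, and in 11.1% of 27025 windows of the same length. GTAAACA was found in 1 window, that of Bcl2l11, at 227 bases before the start, against 2.72% of all windows. CCAAT was found in Bmf and Bcl2l11, 2 of 10 windows, against 31.6% of all. The GC box was found in 5 windows, those of Bcl2, Bcl2l2, Bid, Bad and Bcl2l11, against 28.6% of all, with 6 matches upstream of Bcl2. The p53 half-site was found in 0 of the 10 windows and in 6.37% of all. The windows were rich in G and C, with a median of 63.2% against 51.8% over all windows. The genes that held a GC box included members that rose, fell and did not pass. These matches describe letters and were not tested as binding sites.

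Per exonic kilobase, a scale on which levels of different genes can be compared, Bak1 and Mcl1 stood above the other 8 genes in both groups. In the si-Control-labelled libraries the order of the mean level was Bak1 (48.9 ± 0.217 CPM per kb), Mcl1 (43.9 ± 0.463), Bok (22 ± 1.12), Bad (16.8 ± 0.247), Bcl2l2 (11.9 ± 0.45), Bid (9.07 ± 0.257), Bcl2l1 (7.88 ± 0.24), Bmf (7.27 ± 0.501), Bcl2l11 (3.19 ± 0.156) and Bcl2 (0.879 ± 0.034; SD, n = 3). In that order, the values of Bcl2l1 and Bmf overlapped and no other neighbours did. In si-Rbm22 the order was Mcl1 (76.7 ± 4.16 CPM per kb), Bak1 (37.0 ± 2.13), Bcl2l1 (21.7 ± 1.34), Bcl2l2 (10.6 ± 0.426), Bad (8.79 ± 0.381), Bok (7.73 ± 0.835), Bid (3.67 ± 0.337), Bcl2l11 (3.50 ± 0.0941), Bmf (3.22 ± 0.402) and Bcl2 (1.25 ± 0.0758; SD, n = 3). Here Bid and Bcl2l11 overlapped, as did Bcl2l11 and Bmf. On this length Bcl2l1 moved from place 7 to place 3, and Bok from place 3 to place 6. The places depend on the length and were not worked out for others. With the longest annotated transcript, Bcl2l1 was not below Bcl2l2 in the si-Control-labelled libraries (19.3% and 19.1% of the guardians). Bcl2 was the lowest of the 10 genes in both groups.

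Shares within a library need no scaling between libraries. The 4 guardians together took 37.5%, 37.4% and 37.7% of the summed level per kb of the 10 genes in the si-Control-labelled libraries and 63.9%, 64.0% and 62.1% in si-Rbm22. The effectors took 41.3% ± 0.217 and 25.7% ± 1.15, and the BH3-only genes 21.2% ± 0.132 and 11% ± 0.498 (SD, n = 3 each). Among these 10 genes, the mix of roles was thus narrow within a group and did not overlap between groups. With no length correction the guardians took 45.4% and the effectors 29.1% in the si-Control-labelled libraries, so the order of these roles there depends on the length used. Since the genes were selected with results of these data known, these shares are given without a test. The shares leave out the BH3-only genes Pmaip1, Bbc3 and Bik, which were higher in si-Rbm22 (log2 fold change 3.22, 0.38 and 4.0). The effector Bax, lower in si-Rbm22 (−0.25), is left out too. Before length correction, Pmaip1 had a mean of 37.2 CPM in si-Rbm22, above each of the 4 BH3-only genes counted (Bcl2l11 highest, 28.1 CPM). The lower BH3-only share thus holds for the listed genes only. Shares with the omitted genes were not worked out.

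Among the guardians, Mcl1 took most of the summed level in every library, 68.0% ± 0.593 in those labelled si-Control against 69.5% ± 1.44 in si-Rbm22 (n = 3, SD). Its share overlapped between the groups, because si-Rbm22 replicate 3 lay at 67.9% and si-Control replicate 3 at 68.4%. Bcl2l1 went from 12.2% ± 0.281 to 19.7% ± 1.48, and Bcl2l2 from 18.5% ± 0.722 to 9.65% ± 0.00586. Bcl2 took 1.36% ± 0.0462 and 1.13% ± 0.0465. The ratio of Bcl2l1 to Bcl2l2 per kb was 0.627 to 0.699 in the si-Control-labelled libraries and 1.93 to 2.22 in si-Rbm22, so on this length the order of these guardians was opposite in the groups. With the longest annotated transcript as the length, the order was not opposite. Bcl2l1 and Bcl2l2 then took 19.3% and 19.1% of the guardians in the si-Control-labelled libraries, and 29.9% and 9.62% in si-Rbm22. The share of Mcl1 on that length was 60.1% against 59.2%.

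**Figure D4:**
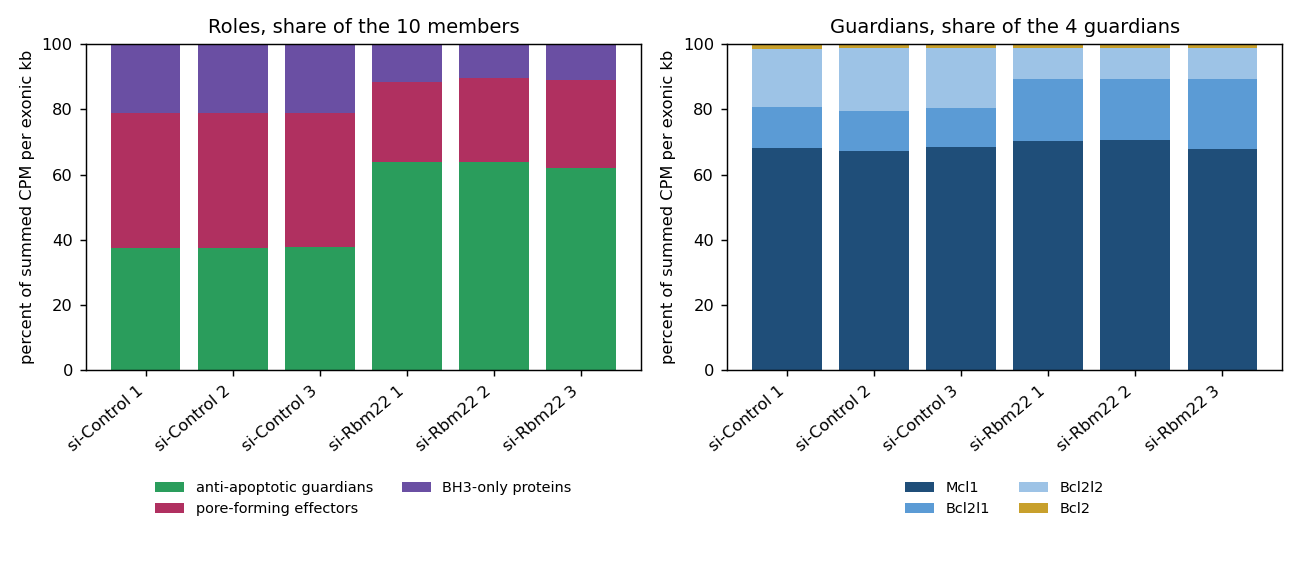
Percent of the summed CPM per exonic kilobase in each of the 6 libraries taken by each role among the 10 genes (left) and by each gene among the 4 guardians (right). Guardians take 37.4% to 37.7% of the summed level of the 10 genes in the si-Control-labelled libraries and 62.1% to 64.0% in si-Rbm22. Mcl1 takes 67.3% to 70.5% of the guardians in every library. The sums leave out the family members Bax, Bbc3, Pmaip1 and Bik.

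The si-Rbm22 replicates varied more than those labelled si-Control. The coefficient of variation of the 10 genes lay between 0.443% and 6.88% in the si-Control-labelled libraries and between 2.69% and 12.5% in si-Rbm22. Bcl2l11 alone among them went the other way, at 4.89% against 2.69%. Within si-Rbm22, replicate 3 stood apart in its counts over all genes, with a chi-square per degree of freedom of 30.1 and 30.9 against replicates 1 and 2, which differed from each other by 10.5. Replicate 3 also had the lowest summed cardiomyocyte marker level of its group, 26303 CPM. In it Bcl2l1, Bak1, Bid and Bcl2l11 were at the highest level of their group and Mcl1, Bcl2 and Bmf at the lowest. Without replicate 3 the log2 fold change was 1.40 for Bcl2l1, 0.83 for Mcl1, −1.39 for Bid and −1.55 for Bok, and 9 of the 10 genes again passed, 3 higher and 6 lower.

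Some members share exonic bases with a neighbouring gene, and because the strand setting of the counting is not given, their counts are less certain. Bak1 shares 437 bp (18.2% of its exonic length) with Ggnbp1 on the opposite strand, and 177 bp with a second locus of that name. Ggnbp1 lay at 5.58 ± 0.36 against 5.46 ± 0.396 CPM (SD, n = 3) and did not pass (edgeR adjusted p = 0.857). Bid shares 628 bp (17.7%) with Bcl2l13 on the opposite strand, which went the other way, from 80.9 ± 2.44 to 113.6 ± 3.45 CPM (log2 fold change 0.49, edgeR adjusted p = 1.58e-06). Bad shares 524 bp (20.5%) with Gpr137 on the opposite strand, which fell as Bad did, from 39.2 ± 1.21 to 17.2 ± 0.505 CPM. Bcl2l2 shares 594 bp (13.3%) on the same strand with Gm20521, and Bcl2 shares 558 bp (6.1%) with an antisense gene, D630008O14Rik, and neither of these has a row in the count table used here. Bcl2l1, Mcl1, Bok, Bmf and Bcl2l11 share no exonic base with another gene. Isoforms were not separated: the annotation lists 8 coding transcripts for Bcl2l1, 5 for Bcl2l11 and 2 for Mcl1, and the counts are sums over them.

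The family members usually listed as p53 targets were described alongside. Pmaip1, the gene of the BH3-only protein NOXA, had 160, 130 and 139 reads in the si-Control-labelled libraries and 1213, 1349 and 1542 in si-Rbm22 (log2 fold change 3.22, SE 0.117, edgeR adjusted p = 6.70e-12). Bbc3, the gene of PUMA, was at 14.3 ± 1.10 against 18.6 ± 1.57 CPM (SD, n = 3; log2 fold change 0.38, edgeR adjusted p = 0.00397). Bax, the effector that moves from the cytosol to the mitochondrion, was at 76.6 ± 6.37 against 64.3 ± 7.66 CPM and passed as lower (log2 fold change −0.25, edgeR adjusted p = 0.0181), although its groups overlapped.

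Of 12 further BCL2 homologues, 5 were tested, and of these 2 were higher, 2 lower and 1 did not pass. The share that passed was 80.0%, beside 82.0% of all genes tested. Bik, a BH3-only gene of the endoplasmic reticulum, had 19, 12 and 7 reads against 183, 248 and 196 (log2 fold change 4.0, SE 0.321, edgeR adjusted p = 3.84e-08). Bnip3, a mitophagy receptor gene induced by low oxygen, fell from 107.7 ± 5.19 to 29.5 ± 3.47 CPM (SD, n = 3; log2 fold change −1.87, SE 0.081, edgeR adjusted p = 4.72e-11). Another 7, Bcl2l10, Bcl2l14, Bcl2l15, Hrk, Bcl2a1a, Bcl2a1b and Bcl2a1d, had at most 13 reads in any library and were not tested. The Bcl2a1 genes are near-identical copies, so their few reads are uncertain.

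Downstream of the mitochondrion, 7 of 16 apoptosome, caspase and inhibitor genes rose, 6 fell and 3 did not pass (median log2 fold change 0.11). Birc3, which encodes an inhibitor of apoptosis protein, had 1, 4 and 7 reads against 597, 583 and 588 and rose by 7.12 on the log2 scale (SE 0.272, edgeR adjusted p = 1.15e-11). Birc5, the gene of survivin, which also acts in mitosis, fell from 92.3 ± 2.15 to 25.0 ± 4.78 CPM (SD, n = 3; log2 fold change −1.88, edgeR adjusted p = 4.84e-08). Among 9 partners at the outer membrane and the endoplasmic reticulum, 4 rose, 3 fell and 2 did not pass (median 0.08). The IP3 receptor genes, calcium channels that BCL2 and BOK bind, stood at both ends of this list, with Itpr1 up by 2.20 on the log2 scale (37.9 ± 3.46 to 174.0 ± 12.3 CPM) and Itpr3 down (132.7 ± 5.33 to 38.4 ± 0.691 CPM; log2 fold change −1.79). Of 25 regulators of the family's proteins, 10 rose, 8 fell and 7 did not pass (median 0.01). Fbxw7, part of a ubiquitin ligase that marks MCL1 for destruction, rose by 1.17 on the log2 scale (SE 0.071), and Foxo1, a factor that can induce Bcl2l11, was lower, at 66.1 ± 1.79 against 31.5 ± 1.67 CPM (log2 fold change −1.07, SE 0.066). The share that passed was 81.2% for the apoptosome list, 77.8% for the membrane partners and 72% for the regulators, beside 82.0% of all genes tested.

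**Figure D5:**
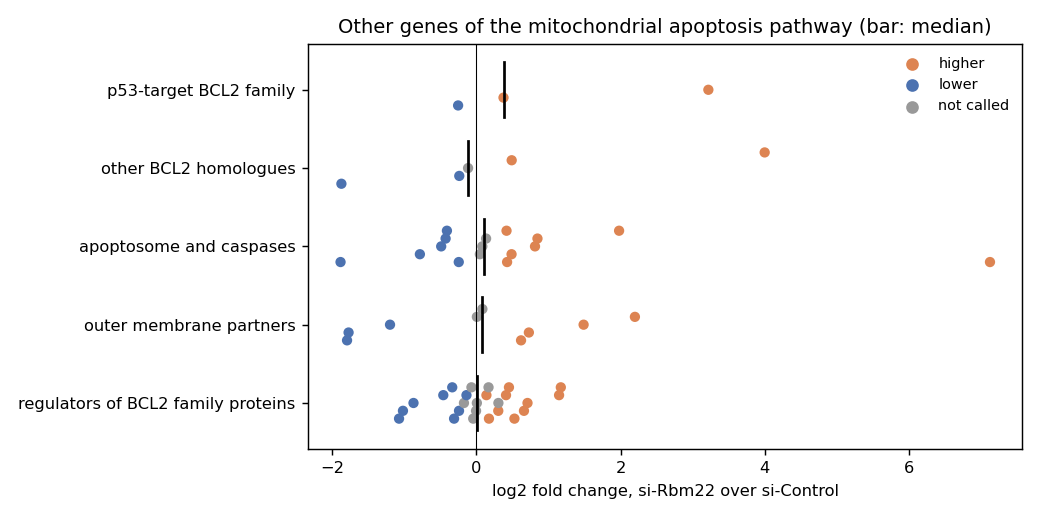
Log2 fold change of si-Rbm22 over si-Control (horizontal axis) for every tested gene of the 5 other apoptosis lists, coloured by whether it passed as higher, as lower or not at all, with a bar at each list's median. The medians lie between −0.11 and 0.38, and Birc3 lies farthest to the right at 7.12.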

How the data were processed

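RNA was measured in 6 libraries, 3 labelled si-Control and 3 si-Rbm22, grouped by their titles. The authors deposited read counts per Ensembl gene, not normalized. GRCm38, HISAT2, HTSeq, fastp and DESeq2 are named in the submitters' processing notes without versions or settings, and the strand setting is not given in the sources used here. Symbols, positions and exonic lengths came from GENCODE M21 (18868 of 18951 identifiers matched) and upstream sequences from RefSeq (GRCm38.p6, 10 of 10 genes).

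All genes were fitted with edgeR 4.0.16 in R 4.3.3 (TMM, filterByExpr, robust quasi-likelihood test, group as the only term, Benjamini-Hochberg over 14621 genes). SEs were derived from the F statistic, as |log2 fold change| over its square root, and intervals are 95%. The procedure was tested on counts simulated from the si-Control-labelled means with few genes changed. That test does not cover a contrast in which 82.0% of genes passed. Alternatives were RLE factors, other filters, DESeq2 1.42.0, limma-voom (3.58.1), a replicate block, mitochondrial transcripts left out, each library left out, and other gene lengths. The genes and lists were chosen with earlier results of these data known. All 10 genes are named, and from each other list the genes that passed with the highest and lowest log2 fold change. Foxo3 was added beside Foxo1. The protocols call replicates biological but do not say that isolations were separate, so each p-value reflects only how these samples vary, which may be technical.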

Additional observations from a re-analysis of the deposited data

How the results depend on the processing

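The direction of all 10 genes was the same under the 13 alternative fits, and Bcl2, Bcl2l1, Mcl1, Bak1, Bok, Bid, Bad and Bmf passed in each. The log2 fold change of Bcl2l2 was −0.15 by DESeq2 and −0.12 among genes with 10 CPM in 3 libraries, where it did not pass, and −0.20 to −0.15 with each library left out, where it did not pass without si-Control replicate 2 or si-Rbm22 replicate 1. Bcl2l11 passed among genes with 10 CPM in 3 libraries (0.17). In that setting the log2 fold changes of all genes were shifted from the main fit by a median of 0.04. The cause of the changed calls was not tested. With each library left out, 8 to 9 of the 10 genes and 11773 to 12315 of all genes passed. With a 2-fold threshold 4 of the 10 genes passed. With the replicate number as a block, 9 of the 10 genes and 11945 of all genes passed, against 11983 without it. The labels give no shared source for equal numbers, and deviations of same-numbered libraries correlated at −0.0164, 0.00689 and 0.00841.

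Shares within the guardians depend on the gene length used. With the longest transcript, then with no length correction, the shares in the si-Control-labelled libraries were 60.1% and 60.6% for Mcl1, 19.3% and 14.6% for Bcl2l1, and 1.53% and 3.25% for Bcl2. In si-Rbm22 they were 59.2% and 62.3% for Mcl1, 29.9% and 23.7% for Bcl2l1, 9.62% and 11.3% for Bcl2l2, and 1.23% and 2.71% for Bcl2. For Bcl2l2 in the si-Control-labelled libraries the share without length correction was 21.5%. The guardians' share of the 10 genes was 35.7% against 62.9% and 45.4% against 69.6% under these lengths, that of the effectors 37.6% against 22.8% and 29.1% against 17.1%, and that of the BH3-only genes 26.7% against 14.2% and 25.5% against 13.3%, alternatives chosen after seeing the data. Leaving out the libraries whose markers go against the label was not possible, since these are all 3 labelled si-Control. Reads per gene and library ran from 277 to 10010, the fewest in Bcl2, which had the widest interval.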
